A study of Mus musculus with 12 samples.

Results

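The genes for 8 neuropeptides of the cortex were examined in the medial prefrontal cortex (mPFC) of mice, namely Sst, Cort, Npy, Vip, Cck, Tac1, Penk and Pdyn. They were chosen by name as peptides known from the cortex, and each had to have a probe set that the platform annotation pairs with that gene alone. All 8 met this rule with 1 probe set each, out of 17656 genes measured in the same way. Each of 12 arrays held the RNA of 1 mouse, 6 from homecage (HC) mice in group housing and 6 from mice after chronic social defeat (CSD). All were wild type males of the C57BL/6 strain, and CSD mice were included on the basis of social interaction and light/dark tests. A CSD mouse shared a cage with a larger, aggressive CD-1 male behind a perforated partition, and the partition was taken out for 5 min per day over 14 days. Tissue was taken 24 h after the last defeat. The labels call the tissue prefrontal cortex, and the forceps minor, a tract of white matter, marked the border of the dissection.

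Neuropeptides are short chains cut from larger precursor proteins, packed into dense core vesicles and released when neurons fire strongly. They act on receptors coupled to G proteins and tune transmission over seconds to minutes. In the cortex most of them are made by inhibitory interneurons that release GABA, and they mark the classes of these cells. Somatostatin (Sst) and neuropeptide Y (Npy) belong to cells that contact dendrites, vasoactive intestinal peptide (Vip) to cells that inhibit other interneurons, and cholecystokinin (Cck) to a class of basket cells, though pyramidal neurons also make it. Cortistatin (Cort) is a close relative of somatostatin that binds the same receptors. Proenkephalin (Penk), prodynorphin (Pdyn) and tachykinin 1 (Tac1), the precursor of substance P, are found in sparse cortical cells, and they are abundant in the projection neurons of the striatum, which lies behind and below the mPFC. Transcription of several of these genes is known to follow neuronal activity through the cAMP response element, a short DNA motif bound by the factor CREB.

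The promoters are shown because this motif, or a part of it, lies in some members and was not used to choose them. RefSeq promoters (build GRCm38.p6) were given for 7 members, all but Penk. Within the 250 bases before the start, the complete element TGACGTCA, which reads the same on both strands, was found in Sst alone among these 7, and it is present in 1.55% of all 32851 promoters of that table. Its core CGTCA, searched on both strands and contained in the complete element, was found in 5 members, Sst, Cort, Vip, Cck and Tac1, against 17.8% of all promoters, and not in Npy or Pdyn. The variant TGCGTCA, which also contains the core, was found in Cort, Cck and Tac1 and in 1.75% of all promoters. The 100 bases before the start of these 5 members follow, 5′ to 3′ on the strand of the gene, with each core, or the complete element, in capitals.
Sst, chr16:23890845-23890944, minus strand: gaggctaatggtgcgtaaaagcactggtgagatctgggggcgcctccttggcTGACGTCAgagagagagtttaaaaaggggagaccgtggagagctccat
Cort, chr4:149126764-149126863, minus strand: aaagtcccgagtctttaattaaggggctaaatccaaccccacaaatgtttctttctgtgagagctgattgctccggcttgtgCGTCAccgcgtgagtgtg
Vip, chr10:5639118-5639217, plus strand: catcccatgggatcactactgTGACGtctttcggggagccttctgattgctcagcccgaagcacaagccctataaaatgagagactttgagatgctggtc
Cck, chr9:121495695-121495794, minus strand: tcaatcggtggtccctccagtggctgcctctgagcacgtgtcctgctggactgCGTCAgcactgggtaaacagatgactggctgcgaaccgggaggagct
Tac1, chr6:7554961-7555060, plus strand: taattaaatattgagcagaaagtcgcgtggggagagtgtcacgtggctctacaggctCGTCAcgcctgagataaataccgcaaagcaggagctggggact
In Sst the element lay 48 to 41 bases before the start, and in Cck the core lay 47 to 43 bases before it. In Tac1 a second core lay 197 to 193 bases before the start, outside the stretch shown. A match is a description of these letters and says nothing of whether a factor binds them.

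The deposited values are on a log2 scale, made by the authors with robust multi-array averaging (RMA), so that a step of 1 is a doubling. The brightness of different probe sets cannot be compared, and only the same gene is compared between mice. Differences are given as CSD minus HC and were tested with limma, which fits each probe set and steadies its variance with that of the others, and p was adjusted by Benjamini-Hochberg over 29838 probe sets. A call required adjusted p below 0.05 together with a fold change of 1.2 or more. Beside it stands a two-sided exact permutation test over the splits of the 12 arrays into 6 and 6, whose smallest possible p is 0.00216 and which is not adjusted.
The array with the highest median of all values was HC replicate 2, at 7.69, followed by CSD replicate 9 at 7.63. The array weights of limma, which score quality, were smallest for HC replicates 2 and 6, at 0.259 and 0.398. No member had a value at or under the noise level of 5.75, which does not show that each was detected. Among the members, the means closest to this level were those of Pdyn (7.43 in HC, 7.32 in CSD) and Cort (7.83 in HC, 7.91 in CSD).

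No peptide gene passed the test between CSD and HC mice, and the 2 groups of mice overlapped for all 8. In limma 0 of 8 members passed at an adjusted p under 0.05, against 0 of all 29838 probe sets (0.0%), and 0 of 8 passed at an unadjusted p under 0.05, against 1485 of 17656 genes (8.41%), 6.52% lower and 1.89% higher in CSD. The methods' t-test also gave 0 of 8 without adjustment, against 8.12% of genes. The groups did not overlap for 179 genes (1.01%), none of them a member. The mean was lower in CSD for 6 members and higher for 2, and their median log2 fold change was −0.01, which is also the median of all genes measured. Over all 17656 genes, CSD had the lower mean for 10090 and the higher for 7566. The fold changes ran from 1.01 to 1.08 in either direction, below the limit of 1.2 that 0.799% of genes reached.

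**Figure D1:**
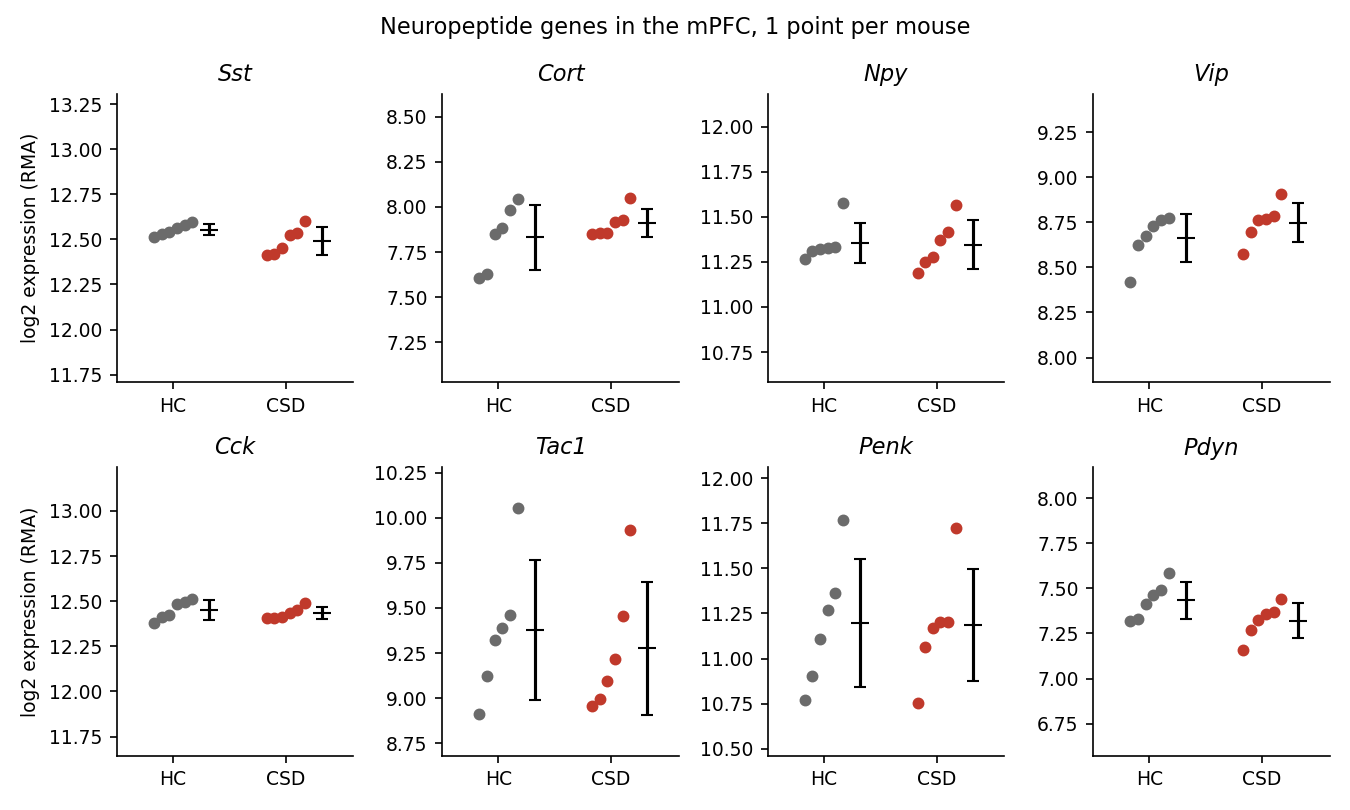
Log2 expression of the 8 peptide genes (vertical axes, each spanning 1.6 log2 units) on each array, HC in grey and CSD in red, sorted by value within a group, beside the group mean and its SD (n = 6). The groups overlap in every panel, the points of Sst and Cck lie close together, and Tac1 and Penk each have 1 high mouse per group.

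Cort, the relative of Sst, varied more than Sst between HC mice (SD 0.18 against 0.03) and about equally between CSD mice (0.08 for both). Sst (probe set 10438730) ran from 12.51 to 12.59 in HC with a median of 12.55, and from 12.41 to 12.60 in CSD with a median of 12.49. The highest and the lowest value were both from CSD mice, and 5 of 6 CSD mice lay below the HC mean. The means were 12.55 ± 0.03 (SD, n = 6) and 12.49 ± 0.08 (SD, n = 6), which put the log2 fold change at −0.06 (standard error 0.04, exact p = 0.102, adjusted p = 0.734 in limma). Its 95% interval ran from a 0.904-fold to a 1.01-fold level in CSD, so that a level below the first of these lay outside it.
Cort (probe set 10518557) ran from 7.61 to 8.04 in HC with a median of 7.87, and from 7.85 to 8.05 in CSD with a median of 7.89. The low end came from HC replicates 4 and 6, and each of the 6 CSD values exceeded the mean of HC. The log2 fold change was 0.08 (standard error 0.08, exact p = 0.372, adjusted p = 0.849 in limma), with an interval from 0.943-fold to 1.18-fold.

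Npy, Vip and Cck, further peptides of interneurons, had intervals that stayed within a fold change of 1.2 in both directions. The intervals of Sst, Cort and Pdyn also stayed within this limit. For Cort and Pdyn these intervals describe the array signal, and how much of it was background was not tested. Npy (probe set 10538247) ran from 11.27 to 11.58 in HC with a median of 11.33, and from 11.19 to 11.57 in CSD with a median of 11.33. The HC mice lay close together except for replicate 2, the array with the highest median over all probe sets. The log2 fold change was −0.01 (standard error 0.07, exact p = 0.883, adjusted p = 0.986 in limma), with an interval from 0.896-fold to 1.10-fold.
Vip (probe set 10367582) ran from 8.42 to 8.77 in HC with a median of 8.70, and from 8.58 to 8.91 in CSD with a median of 8.76. HC replicate 5 was lowest and CSD replicate 8 highest, and the other mice of both groups lay between 8.58 and 8.78. The log2 fold change was 0.08 (standard error 0.07, exact p = 0.277, adjusted p = 0.812 in limma), with an interval from 0.958-fold to 1.17-fold.
Cck (probe set 10597817) ran from 12.38 to 12.51 in HC with a median of 12.45, and from 12.41 to 12.49 in CSD with a median of 12.42. All CSD mice lay inside the range of the HC mice. The log2 fold change was −0.02 (standard error 0.03, exact p = 0.502, adjusted p = 0.935 in limma), with an interval from 0.940-fold to 1.04-fold, the narrowest of the 8.

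Pdyn, the precursor of the dynorphins, had the smallest p of the 8. Its values (probe set 10487613) ran from 7.32 to 7.59 in HC with a median of 7.44, and from 7.16 to 7.44 in CSD with a median of 7.34. CSD replicate 2 was lowest, HC replicate 1 was highest, and 5 of 6 CSD mice lay below the HC mean. The means were 7.43 ± 0.10 (SD, n = 6) and 7.32 ± 0.10 (SD, n = 6), which put the log2 fold change at −0.11 (standard error 0.06, exact p = 0.0758, adjusted p = 0.643 in limma). The 95% interval of the log2 fold change ran from −0.23 to 0.01. The unadjusted limma p of 0.0679 fell to 0.0377 without HC replicate 3, to 0.0404 without HC replicate 5 and to 0.0349 without CSD replicate 7, and the adjusted p stayed above the threshold in each of these.

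Penk and Tac1 were the members that varied most between mice, in HC and CSD alike. Penk (probe set 10511363), the precursor of the enkephalins, ran from 10.77 to 11.77 in HC with a median of 11.19, and from 10.76 to 11.72 in CSD with a median of 11.18. Its highest mouse was 2.02-fold above its lowest. The log2 fold change was −0.01 (standard error 0.17, exact p = 0.955, adjusted p = 0.993 in limma), with an interval from 0.764-fold to 1.29-fold.
Tac1 (probe set 10536363) ran from 8.91 to 10.05 in HC with a median of 9.36, and from 8.96 to 9.93 in CSD with a median of 9.16. Its highest mouse was 2.20-fold above its lowest. The log2 fold change was −0.10 (standard error 0.20, exact p = 0.636, adjusted p = 0.934 in limma), with an interval from −0.52 to 0.32 on the log2 scale. The intervals of Penk and Tac1 held changes of 1.2-fold in both directions.

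**Figure D2:**
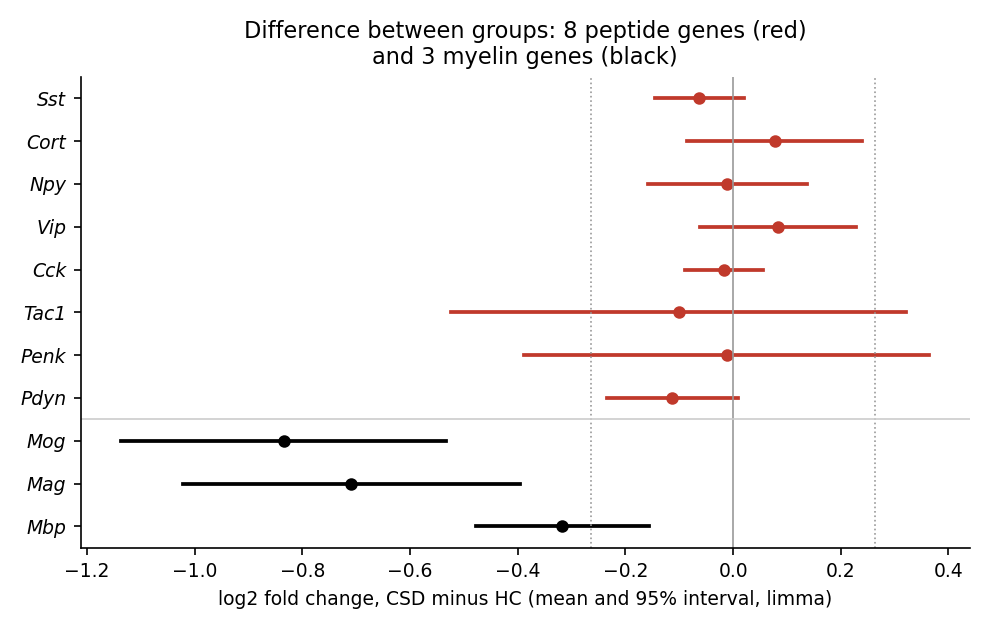
Log2 fold change (CSD minus HC) of the 8 peptide genes in red and of 3 myelin genes in black, each with its 95% interval from limma (n = 6 per group), with dotted lines at a fold change of 1.2. All peptide intervals span 0, those of Tac1 and Penk are the widest, and those of Mog, Mag and Mbp lie below 0.

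The spread within groups set the peptide genes apart from each other. The pooled SD was 0.045 log2 units for Cck and 0.058 for Sst, at the 4.38 and 10.6 percentile of all genes measured, so that few genes were steadier from mouse to mouse. It was 0.378 for Tac1 and 0.335 for Penk, at the 99.8 and 99.7 percentile. Pdyn, Vip, Npy and Cort lay between, from 0.099 to 0.138. These percentiles describe the 12 arrays and carry no test. They were not set against genes of similar signal level. Among listed genes with high values, the percentile was 1.36 for Camk2a and 1.68 for Cpe, but 21.0 for Slc17a7.
The high values of Penk and Tac1 came from the same mice, HC replicate 1 and CSD replicate 7. In HC replicate 1 Penk was 1.61-fold and Tac1 1.75-fold above the mean of the other HC mice. In CSD replicate 7 Penk was 1.56-fold and Tac1 1.73-fold above the mean of the other CSD mice. Pdyn was also the highest of its group in both, at 1.13-fold and 1.11-fold. Without these arrays, a choice made after seeing the data, the SD fell to 0.213 for Tac1 and 0.220 for Penk, at the 97.7 and 98.0 percentile of all genes measured, and the log2 fold changes were −0.10 for Tac1 and −0.005 for Penk.

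Genes of striatal neurons were high on the same arrays. Of 10 such genes measured, 6 were highest in HC replicate 1 among the HC mice and 9 were highest in CSD replicate 7 among the CSD mice. Their mean level was 8.88 in HC replicate 1 and 8.92 in CSD replicate 7, while the other mice lay between 8.50 and 8.72. The ranges were 8.50 to 8.88 in HC and 8.51 to 8.92 in CSD. All 10 genes had means above the noise level, the dimmest at 6.98, which does not show that each was detected. The mean difference between the groups (8.68 in HC, 8.62 in CSD) was smaller than either range. The median over all probe sets was 7.53 in HC replicate 1 and 7.60 in CSD replicate 7. How many of all genes were highest on either array was not counted.
Across the 12 mice, with each group centred on its own mean, Penk correlated with the mean of the striatal genes at r = 0.89 (permutation p = 0.00098, adjusted p = 0.00784 over 8 members) and rho = 0.78 (permutation p = 0.00432, adjusted p = 0.0346). Without HC replicate 1 and CSD replicate 7, the mice farthest from the median of Penk, r was 0.69. Tac1 correlated at r = 0.76 (permutation p = 0.0119, adjusted p = 0.0474) and rho = 0.45 (permutation p = 0.153, adjusted p = 0.517), and r was 0.04 without the same mice, so that the relation of Tac1 rested on them. For Pdyn r was 0.58 (permutation p = 0.0670, adjusted p = 0.179) and rho 0.42 (permutation p = 0.194, adjusted p = 0.517), with r = 0.41 without its 2 farthest mice. For the other 5 members r lay between −0.20 and 0.11. All 10 striatal genes correlated positively with Penk, from r = 0.11 to 0.86, and 9 of 10 with Tac1 and with Pdyn. Some of these genes, such as Ppp1r1b and Drd1, are also expressed in cortical neurons. The part of striatal tissue in the spread of Penk and Tac1 was not tested. In tissue of many cell types, fewer cells of a type and less RNA per cell cannot be told apart.

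**Figure D3:**
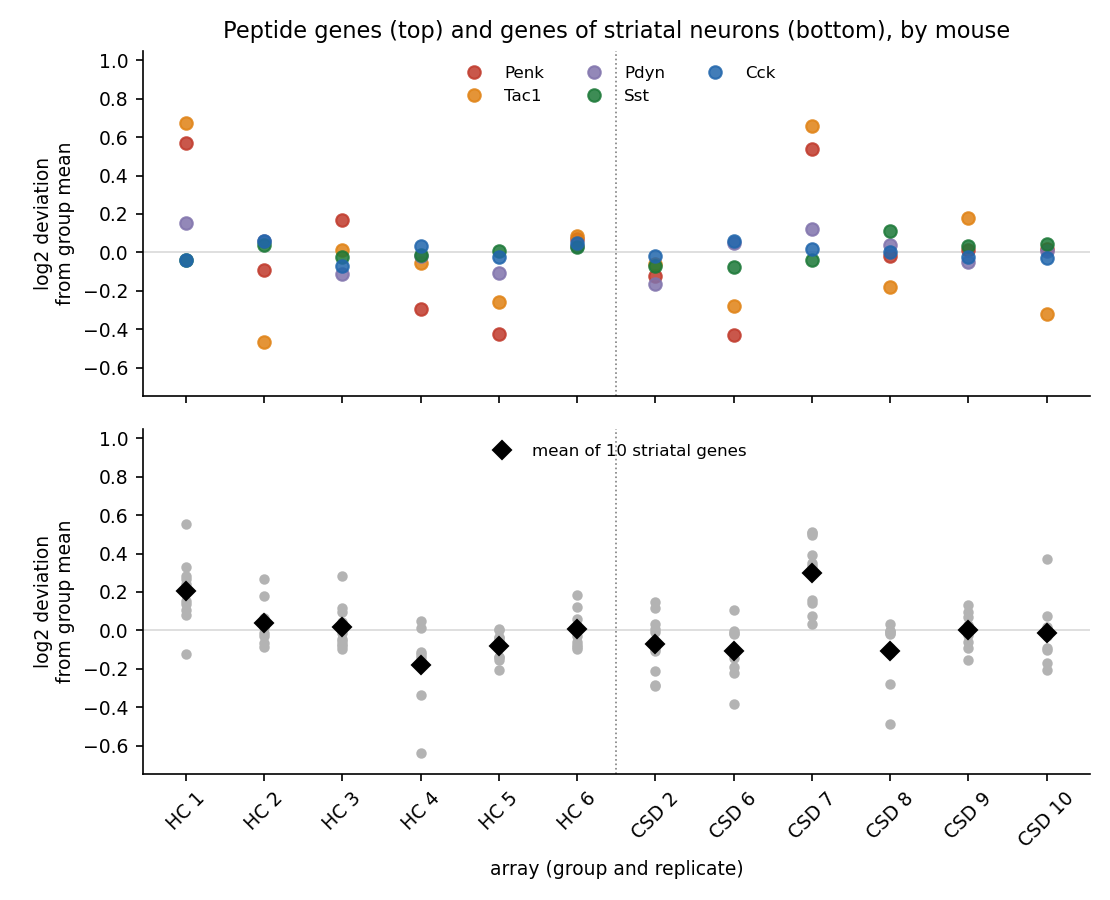
Log2 deviation from the group mean (vertical axes) for each array, with the HC mice left of the dotted line and the CSD mice right of it. The upper panel shows Penk, Tac1, Pdyn, Sst and Cck and the lower panel 10 genes of striatal neurons (grey) with their mean (black diamonds), and HC replicate 1 and CSD replicate 7 are high in both for Penk, Tac1 and the striatal mean, while Sst and Cck stay near 0.

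Between members, 28 pairs were compared across mice, and 0 passed the adjustment over the pairs. The pair with the smallest p was Tac1 and Penk, with r = 0.82 (permutation p = 0.00446, adjusted p = 0.125) and rho = 0.67 (permutation p = 0.0267, adjusted p = 0.249). Without HC replicate 1 and CSD replicate 7 it had r = 0.41. Npy and Cck followed with r = 0.55 (permutation p = 0.0553, adjusted p = 0.536) and rho = 0.69 (permutation p = 0.00597, adjusted p = 0.167), and without the 2 mice farthest from the median of Npy r was 0.60. Cort and Npy had r = 0.51 (permutation p = 0.0663, adjusted p = 0.536) and rho = 0.24 (permutation p = 0.430, adjusted p = 0.888), with r = 0.78 without the 2 mice farthest from the median of Cort. Penk and Pdyn had r = 0.53 (permutation p = 0.0922, adjusted p = 0.536) and rho = 0.34 (permutation p = 0.298, adjusted p = 0.841), and r was −0.02 without HC replicate 1 and CSD replicate 7, so that the relation rested on them. Npy and Pdyn had r = 0.53 (permutation p = 0.0958, adjusted p = 0.536) and rho = 0.69 (permutation p = 0.0183, adjusted p = 0.249), and r was 0.68 without the 2 mice farthest from the median of Npy. Sst and Cort, whose peptides share receptors, had r = 0.28 (permutation p = 0.217, adjusted p = 0.675) and rho = 0.27 (permutation p = 0.309, adjusted p = 0.841), with r = 0.13 without the 2 mice farthest for Sst. With each array centred on its median, r fell to 0.36 for Npy and Cck and to 0.40 for Cort and Npy, rose from 0.15 to 0.53 for Vip and Cck and from 0.12 to 0.46 for Sst and Vip, and was 0.83 for Tac1 and Penk, and again 0 pairs passed the adjustment.

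**Figure D4:**
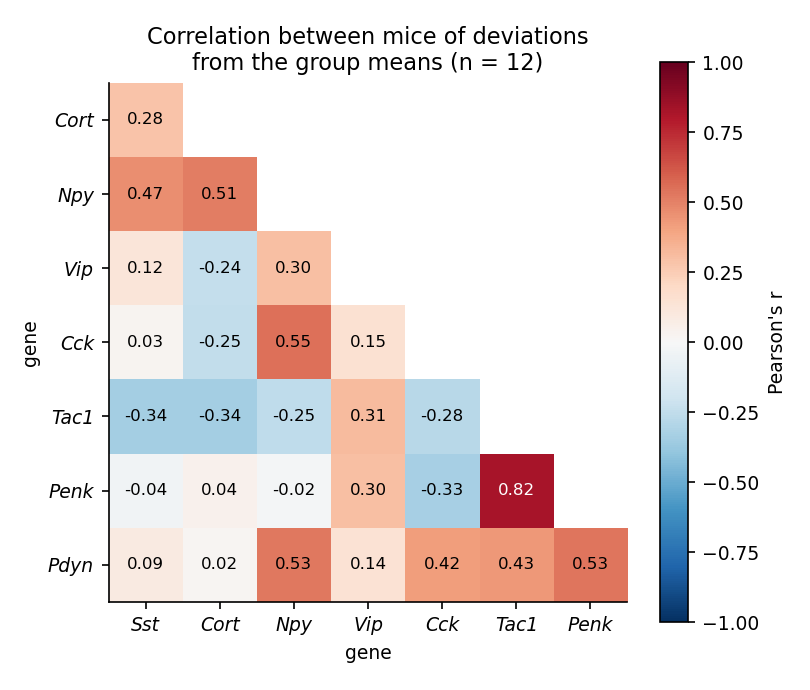
Pearson's r between each pair of the 8 peptide genes (rows and columns) over 12 mice, after each group was centred on its own mean, with red for positive and blue for negative values. Tac1 and Penk have the highest value, 0.82, and no pair passed the adjustment.

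The genes whose pattern across the 12 mice was most like that of each member were sought among 9704 genes at or above the median brightness, by Pearson's r after centring the groups. This is a description with no test, since the best of so many genes is high in any case. For Tac1 they were Rgs9 (r = 0.89), Fgf11 (0.85) and Rarb (0.83), of which Rgs9, a regulator of G protein signaling that is abundant in striatal neurons, and Rarb, a retinoic acid receptor, stood in the striatal list. For Penk they were Rsl1d1 (r = 0.94), Nucb2 (0.89) and Vhl (0.88). For Sst they were Tubgcp6 (r = 0.89), Inhba (0.89) and Pom121 (0.87), and for Npy they were Lzts2 (r = 0.98), Pcyt2 (0.94) and Wdr18 (0.94). For Cck they were Prickle1 (r = 0.96), Ckmt1 (0.96) and Ephx4 (0.94), and for Vip they were Cwc15 (r = 0.93), Cnep1r1 (0.91) and Zfp609 (0.91). For Cort they were Dcxr (r = 0.92), Krtap10-10 (0.91) and Grrp1 (0.90), and for Pdyn they were Ddx39b (r = 0.86), Zfp414 (0.85) and the microRNA gene Mir382 (0.84).

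The receptors of these peptides were nearly balanced between the groups. Of 19 receptor genes measured, 9 were higher in CSD on average and 10 lower. Their median log2 fold change was −0.003, against −0.01 over all genes. In limma 0 passed the adjustment, against 0 of all 29838 probe sets (0.0%). At an unadjusted p under 0.05 there was 1, Sstr2, a receptor for somatostatin and cortistatin, against 8.41% of all genes. Sstr2 averaged 9.61 ± 0.17 for HC and 9.38 ± 0.13 for CSD (SD, n = 6 each), and all 6 CSD mice lay below the HC mean, though the groups overlapped. Its log2 fold change was −0.23 (standard error 0.08, exact p = 0.026, adjusted p = 0.453 in limma). The other somatostatin receptors differed by −0.003 (Sstr1), −0.02 (Sstr3 and Sstr4) and 0.13 (Sstr5) on the log2 scale.
For neuropeptide Y the log2 fold changes were 0.06 for Npy1r, 0.02 for Npy2r and 0.007 for Npy5r. For Vip they were −0.02 for Vipr1 and 0.003 for Vipr2, and for Cck −0.06 for Cckbr, the main receptor in the brain, and −0.04 for Cckar. The opioid receptors differed by 0.02 (Oprm1, the mu type), −0.08 (Oprd1, delta) and 0.05 (Oprk1, kappa, the target of dynorphin). The substance P receptor Tacr1 differed by 0.08 (adjusted p = 0.867 in limma). The other tachykinin receptors differed by 0.06 (Tacr2) and −0.20 (Tacr3), with adjusted p = 0.865 and 0.672 in limma.

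Genes that turn precursors into peptides were close to equal for the most part. Of 11 such genes measured, 5 were higher and 6 lower in CSD (median −0.001). The adjustment in limma was passed by 0 of them and by 0 of all 29838 probe sets. At an unadjusted p under 0.05 there were 2, both lower, where 6.52% of all genes were lower at this threshold. Pcsk1n, which encodes proSAAS, an inhibitor of the convertase that cuts many precursors, differed by −0.15 on the log2 scale (standard error 0.04, exact p = 0.00866, adjusted p = 0.313 in limma), with means of 12.14 ± 0.09 for HC and 11.99 ± 0.04 for CSD (SD, n = 6 each). Chga, a granin of dense core vesicles, differed by −0.08 (standard error 0.03, exact p = 0.0195, adjusted p = 0.591 in limma). The convertase Pcsk1 differed by 0.04 and Cpe, the carboxypeptidase that trims the cut ends, by −0.001 on the log2 scale. Of 6 peptidases that break peptides down, 4 were lower and 2 higher (10090 lower and 7566 higher over all genes), and Nln, neurolysin, was the 1 at an unadjusted p under 0.05, lower by a log2 value of −0.11 (standard error 0.05, adjusted p = 0.536 in limma).
Among 15 other neuropeptide genes measured, 9 were lower and 6 higher in CSD, with a median of −0.03. Here too 0 passed the adjustment in limma, as over all 29838 probe sets. Tac2, the precursor of neurokinin B, was the 1 at an unadjusted p under 0.05, against 8.41% of all genes, with a log2 fold change of −0.13 (standard error 0.06, exact p = 0.0519, adjusted p = 0.561 in limma).

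**Figure D5:**
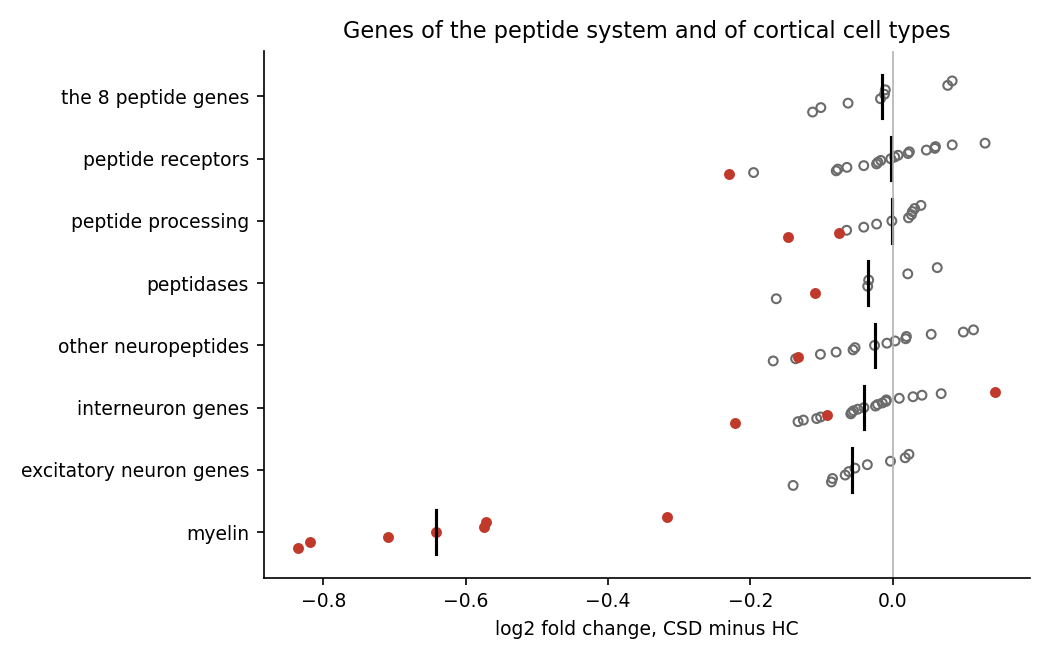
Log2 fold change (CSD minus HC, horizontal axis) of each gene in 8 lists, with a black line at the median, filled red circles for an unadjusted p under 0.05 in limma and open circles for the rest. The peptide genes hold no filled circle and spread around 0. The receptor and processing lists also spread around 0 but hold 1 and 2 filled circles, while the median of the 7 myelin genes is −0.64.

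Beside the peptides, genes of the cells that make them were examined. Of 21 interneuron genes measured, 16 were lower in CSD on average and 5 higher (median −0.04), where 10090 of all 17656 genes were lower. The adjustment in limma was passed by 0 of these 21, as by 0 of all 29838 probe sets. At an unadjusted p under 0.05, which 8.41% of all genes reached, Calb1 (calbindin) was higher at 0.14, and Sox6, a factor needed by Sst and Pvalb cells, and Prox1 were lower at −0.09 and −0.22 (adjusted p = 0.419, 0.493 and 0.545 in limma). Genes of this list need not be confined to interneurons, and which cells these differences came from was not tested. The GABA synthesis genes Gad1 and Gad2 differed by −0.04 and −0.13. The excitatory marker Slc17a7 had means of 12.73 ± 0.07 for HC and 12.72 ± 0.07 for CSD (SD, n = 6 each), and of 10 excitatory genes 8 were lower and 2 higher, with 0 at an unadjusted p under 0.05 in limma. The ones with the smallest p were Rorb at −0.09 and Foxp2 at −0.14. All 10 excitatory genes were above the noise level, the lowest mean being 9.06 (Foxp2 in CSD).
Myelin genes had the lowest median of the lists examined. All 7 myelin genes were lower at an unadjusted p under 0.05 in limma, as were 6.52% of all genes, and their median was −0.64. For 6 of them the groups did not overlap, against 1.01% of all genes. The authors reported lower myelin genes from these same arrays. Mog and Mag, proteins of the myelin surface, differed by −0.84 and −0.71, and Mbp, myelin basic protein, by −0.32 (adjusted p = 0.0986, 0.147 and 0.199 in limma). The mean level of the myelin list ran from 10.20 to 10.73 in HC and from 9.53 to 10.11 in CSD, and the part of white matter in the peptide values was not tested. Of 11 genes of astrocytes, microglia and vessels all 11 had a lower mean (median −0.06), where 10090 of all 17656 genes had one, with Aqp4 at −0.18 and P2ry12 at −0.14 under an unadjusted p of 0.05, against 6.52% of all genes lower at this threshold, and the mean level of the list ran from 10.12 to 10.32 in HC and from 10.06 to 10.17 in CSD. Of the 10 striatal genes, 7 were lower and 3 higher, and Drd1, a dopamine receptor, was the 1 at an unadjusted p under 0.05, at −0.16 (adjusted p = 0.476 in limma).
Of 13 genes induced by activity, 9 were lower in CSD on average and 4 higher, with a median of −0.22. Dusp1 at −0.43 and Junb at −0.25 were lower at an unadjusted p under 0.05 (adjusted p = 0.453 and 0.494 in limma), as were 6.52% of all genes. The members with a core of the cAMP response element in the promoter shown above differed in both directions, by −0.06 (Sst), 0.08 (Cort), 0.08 (Vip), −0.02 (Cck) and −0.10 (Tac1), and none of them passed the test. Without a core, Npy differed by −0.01 and Pdyn by −0.11, and Penk, for which no promoter was given, by −0.01. A relation of these differences to activity was not tested.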

How the data were processed

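Total RNA (200 ng per mouse) was hybridized to Affymetrix Mouse Gene ST arrays, 6 HC and 6 CSD, 1 per mouse. The authors deposited log2 values for 35556 probe sets, computed by RMA with Affymetrix Expression Console software, whose version is not given in the sources used here. This method subtracts background, brings arrays to a common distribution and summarizes probes, which can shrink differences. The medians of the deposited values still differed, from 7.50 in HC replicate 6 to 7.69 in HC replicate 2.
The methods set system noise from a curve of variation on the mean and print no value, so 5.75, the 20th percentile over all arrays, took its place. Probe sets with no value above it (5718) were left out, 29838 were kept, and 4.67% of kept values were raised to it. Groups were taken from sample titles.
CSD was tested against HC with limma 3.58.1 in R 4.3.3 (lmFit, eBayes, no covariate), after a check on simulated data. An array has no read depth, and the number of arrays limits the precision. In the 2016 annotation, 21789 probe sets name a single gene, and the brightest stood for each gene. Correlations used 100000 permutations within groups. Plots were made in Python 3.11.15 (matplotlib 3.10.9).
The members and gene lists were chosen with earlier results of these data known. All members were named, and from each list the genes at an unadjusted p under 0.05, otherwise the 2 with the smallest p. Receptors could be named beside their peptide, and other listed genes (Pcsk1, Cpe, Gad1, Gad2, Slc17a7, Camk2a, Ppp1r1b) were named after their values were seen. Listed genes without a probe set of their own were not analysed here. The alternatives were another test, floor, filter, noise level, probe set choice, scaling, variance model, array weights, a replicate block and leaving out arrays.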

Additional observations from a re-analysis of the deposited data

Results flagged for a closer look

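For Npy, HC replicate 2 stood apart from the other HC mice, with a gap to the next mouse that took up 0.801 of the spread from lowest to highest, which exceeds the 95% limit of Dixon's test for 6 values. Its value was 11.58, and the other 5 HC mice lay between 11.27 and 11.33. The same array had the highest median of all probe sets, 7.69, and the lowest quality weight, 0.259. Of 16 groups examined (8 genes in HC and CSD) this was the 1 that passed the limit, and chance passes about 1 in 20. Without it the log2 fold change of Npy was 0.03.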

How the results depend on the processing

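No member passed at an adjusted p under 0.05 in any of the 24 alternatives run, whose adjusted p was 0.469 or higher for Pdyn and 0.567 or higher for the other 7. Sst and Pdyn stayed lower and Cort and Vip higher in CSD throughout, with log2 fold changes from −0.17 to −0.05, −0.21 to −0.08, 0.03 to 0.12 and 0.03 to 0.12. Penk turned to 0.0007 with quantile normalization, and with array weights Npy turned to 0.019 and Cck to 0.0086, Tac1 went to −0.27 and Penk to −0.12. Without HC replicates 2 and 6, chosen after seeing the data, Npy was 0.0379 and Cck 0.0098. With each array left out in turn, the log2 fold change ran from −0.12 to 0.10 for Penk, from −0.23 to 0.0338 for Tac1 and from −0.0545 to 0.0338 for Npy, and the count of members at an unadjusted p under 0.05 from 0 to 1. That member was Pdyn without HC replicate 3, HC replicate 5 or CSD replicate 7, and Sst without CSD replicate 8, where its log2 fold change was −0.09. Tac1 was above 0 without HC replicate 1 alone, and Penk reached its highest value without the same array. Over all probe sets, 21 passed when only those with 1 gene were tested, 14 with robust estimation and a variance trend, 1 with quantile normalization and 406 without adjustment, and none of those that passed the adjustment was a member. In the other alternatives 0 of all probe sets were called. Numbers 2 and 6 occur in both groups, but the same-numbered arrays did not deviate together (r = −0.21 and −0.04). The fit with the replicate block therefore took its difference from replicates 2 and 6 of each group alone. In it 0 members passed, but with so few arrays this cannot show the absence of a difference. Sst was at −0.17 and Penk at −0.28 there. The range ends of −0.17 for Sst and −0.21 for Pdyn given above came from this fit. Each member had 1 probe set, so that a mean over probe sets gave nothing new.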
